A study of Homo sapiens with 4 samples.

Results

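Genes of the neuroendocrine lineage were followed through RNA sequencing of 22Rv1 cells, an established human prostate cancer line that the labels class as castration-resistant (CRPC). The 9 genes were taken by symbol from the 63241 genes with values: the granule and vesicle genes CHGA, CHGB and SYP, the enolase ENO2, the adhesion gene NCAM1, and the regulators INSM1, SRRM4, ONECUT2 and REST. All 9 matched 1 Ensembl identifier by their current symbol, and none was added through an older symbol. One group received 40 nM JMC45 for 12 h, a small molecule directed at CDK9 that is taken here to be the degrader named Compound 45 (D45) in the series title. The other received the DMSO vehicle for 12 h, and no untreated cells were part of the comparison. Each group had 2 libraries. Whether these were separate cultures is not in the labels, and p-values therefore reflect only how far these libraries vary, which can be technical. The study used 1 cell line, so the values describe that line alone.

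Neuroendocrine cells store peptide hormones in dense core granules and carry proteins shared with neurons. Prostate adenocarcinoma can take on this program under hormonal therapy. REST is a zinc finger repressor that keeps neuronal and neuroendocrine genes silent in other cells by binding a DNA element called RE1 and recruiting corepressors. SRRM4 is a neural splicing factor that includes short exons and can switch REST pre-mRNA to a truncated form, ONECUT2 is a homeodomain factor linked to the neuroendocrine state, and INSM1 is a zinc finger factor of endocrine differentiation. CHGA and CHGB are granins, the matrix proteins of dense core granules, SYP is a membrane protein of small vesicles, ENO2 is the neuronal form of enolase, and NCAM1 (CD56) is a cell adhesion molecule used in pathology as a neuroendocrine marker. CDK9 releases paused RNA polymerase II into elongation.

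The sequences before the start sites of 5 of these genes are shown so that the genes that rose and those with lower values can be set beside each other. RefSeq windows on GRCh38.p14 were matched by symbol for 6 of the 9 genes, and none was used for CHGB, INSM1 and NCAM1. Each line gives the 100 bases just upstream of the annotated start, read 5′ to 3′ on the gene's strand. Capitals mark matches to the cAMP response element TGACGTCA, the TATA core TATAA or the GC box GGGCGG, on either strand.
CHGA (chr14:92923050-92923149, + strand): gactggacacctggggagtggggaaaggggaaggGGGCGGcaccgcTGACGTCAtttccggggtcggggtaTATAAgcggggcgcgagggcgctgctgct
SRRM4 (chr12:118981441-118981540, + strand): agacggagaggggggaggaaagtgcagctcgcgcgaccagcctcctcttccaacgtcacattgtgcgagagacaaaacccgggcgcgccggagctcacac
ENO2 (chr12:6914480-6914579, + strand): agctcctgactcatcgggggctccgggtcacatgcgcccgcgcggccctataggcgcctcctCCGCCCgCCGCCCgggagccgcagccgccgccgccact
REST (chr4:56907800-56907899, + strand, the first of 2 windows): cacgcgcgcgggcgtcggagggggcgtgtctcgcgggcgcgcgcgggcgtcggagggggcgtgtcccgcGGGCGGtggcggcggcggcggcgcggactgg
ONECUT2 (chr18:57435274-57435373, + strand): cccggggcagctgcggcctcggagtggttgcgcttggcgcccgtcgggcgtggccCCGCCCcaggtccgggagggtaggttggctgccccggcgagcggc

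Among the member windows, CHGA was the one with a match to the full cAMP response element, at position -54, and the one with a TATA core, at -29. In all 35116 RefSeq windows of 300 bases (250 before the start and 50 after), 1.85% held the first motif and 20.4% the TATA core. A GC box was found in at least 1 window of each of the 6 genes, against 45.0% of all windows, so it occurred both in genes that rose and in genes that fell. The RE1 element was searched as its left part TTCAGCACC and its right part GGACAGC, which 0.376% and 6.03% of all windows held. No member window held the left part, and the right part occurred in ONECUT2 at position 12 and in the second REST window at -170. A match describes letters and not a bound site. The search covered exact letters in these windows only, so a lack of matches does not show that a gene has no RE1 element.

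In vehicle-treated cells the 9 genes ran from abundant to absent. The values are TPM, read abundance per transcript length scaled to a fixed total in each library, so levels can be compared between genes. In vehicle the order of mean TPM was ENO2, SYP, SRRM4, REST, CHGB, ONECUT2, CHGA, NCAM1 and INSM1. Neighbours in that order did not overlap between libraries, except NCAM1 and INSM1 at the bottom. With JMC45 the order was the same apart from REST and CHGB, which changed places. CHGA, NCAM1 and INSM1 lay below a mean TPM of 1 over the 4 libraries. They were therefore not part of the test, which covered the other 6 genes.

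**Figure D1:**
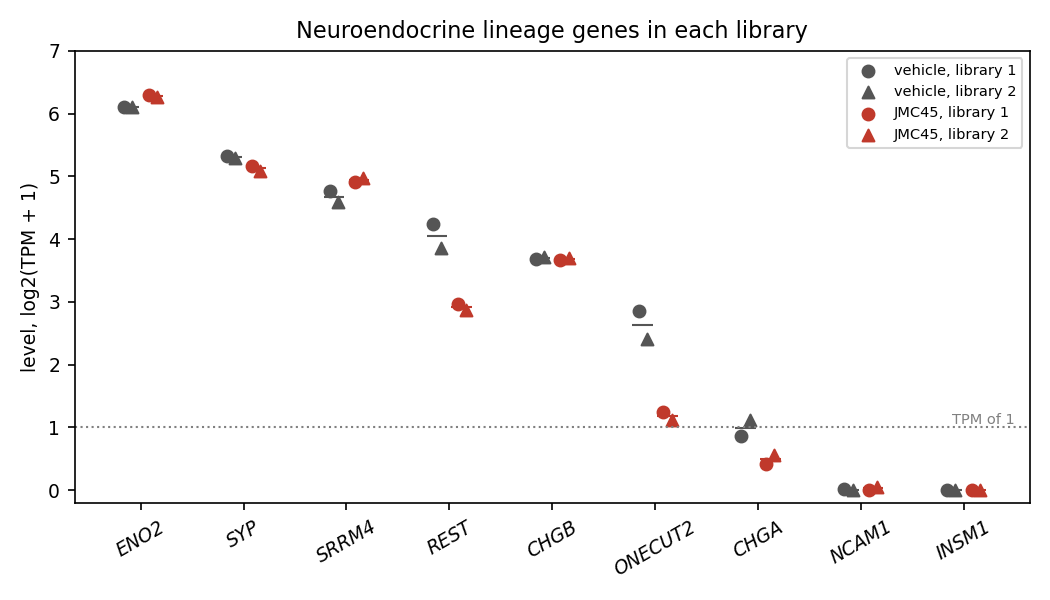
Level of each gene in each library, as log2(TPM + 1), with grey for vehicle, red for JMC45, circles for library 1, triangles for library 2, and short lines for the group mean of the 2 log2 values. REST went from a mean of 15.7 TPM to 6.58 TPM and thereby fell below CHGB, which was at 12.0 and 11.9 TPM.

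Most transcripts in the libraries had a lower TPM after JMC45, and the lineage genes have to be read against that. Of 14018 genes tested, 84.9% passed limma's test at an adjusted p of 0.05, with 4.25% higher and 80.7% lower in JMC45, and the median change was -1.10 on the log2(TPM + 1) scale. Mitochondrially encoded genes took 20.4% and 20.1% of all TPM in the vehicle libraries and 26.6% and 29.3% in the JMC45 libraries. TPM values sum to the same total in each library, and sequencing depth cannot be recovered from them. No spike-in was analysed, so changes are changes in a transcript's share, and the bulk values cannot tell fewer cells of a kind from less RNA per cell. Luminal prostate markers were present in each library, with a summed TPM over 16 genes of 1646 and 1597 in vehicle and 547 and 542 in JMC45. Summed TPM was 1.69 to 3.62 over 8 leukocyte markers, with PTPRC at most 0.02, and at most 0.04 over 5 endothelial markers.

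Of the 6 lineage genes tested, 2 rose (SRRM4 and ENO2), 2 fell (REST and ONECUT2) and 2 did not pass (CHGB and SYP). Their median change was -0.09, against -1.10 for all genes tested. The share called in either direction was 4 of 6, below the 84.9% of all genes, and the members were chosen with earlier results known.

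REST, the repressor of the lineage, measured 17.9 and 13.6 TPM in vehicle and 6.85 and 6.30 TPM in JMC45. Both JMC45 libraries were below both vehicle libraries, and the vehicle libraries differed more from each other than the JMC45 libraries did. Its change was -1.13 (SE 0.15, 95% interval -1.50 to -0.76, limma adjusted p = 0.000587). The mean fell 2.39-fold. REST changed about as much as the typical transcript: 48.5% of tested genes had a lower change, and relative to the median gene its value was -0.03. Scaling by median-of-ratios size factors, which centres the libraries on their typical gene (called size-factor scaling from here), gave 0.10 (adjusted p = 0.476), and quantile normalization gave 0.22 (adjusted p = 0.146). REST shares 23 exonic bases with NOA1, a mitochondrial GTPase gene on the opposite strand, in GENCODE release 29. NOA1 was at 26.4 and 25.5 TPM in vehicle and 6.93 and 6.27 TPM in JMC45, and how far such reads were shared was not tested.

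ONECUT2 measured 6.24 and 4.32 TPM in vehicle and 1.37 and 1.18 TPM in JMC45. The groups did not overlap, which was so for 92% of all genes tested. Its change on the log2(TPM + 1) scale was -1.45 (SE 0.19, 95% interval -1.91 to -0.98, limma adjusted p = 0.000537). With 0.1 added instead of 1 the change was -1.95. Mean TPM, with nothing added, fell 4.14-fold. On the log2(TPM + 1) scale 35.0% of the tested genes had a lower change than ONECUT2. It remained called lower after size-factor scaling (-0.49, adjusted p = 0.0229) but not after quantile normalization (-0.24, adjusted p = 0.183). The paralogs ONECUT1 and ONECUT3 were at most 0.01 TPM in each library.

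SRRM4, the neural splicing factor, was at 26.2 and 23.1 TPM in vehicle and at 29.2 and 30.3 TPM in JMC45. Both JMC45 values were above both vehicle values, which was so for 6.28% of tested genes. The change was 0.26 (SE 0.09, 95% interval 0.04 to 0.49, limma adjusted p = 0.0336), or 1.21-fold by mean TPM. The call did not hold without vehicle replicate 2 (0.18, adjusted p = 0.121) or without either JMC45 library (0.29 and 0.24, adjusted p = 0.0857 and 0.137). With mitochondrially encoded TPM set to the same total in all libraries the value turned to -0.18 (adjusted p = 0.180). Of the tested genes, 95.1% had a lower change than SRRM4 on TPM and 94.4% in that last setting. Such a rank could hardly move there, because 1 factor per library shifts all genes alike apart from the 1 added in log2(TPM + 1). SRRM3, its paralog, fell from 12.2 and 10.7 TPM to 4.77 and 4.82 TPM (log2 change -1.10), and size factors gave 0.09.

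ENO2 was the most abundant of the 9 genes in both groups. It measured 68.0 TPM in both vehicle libraries and 77.4 and 76.1 TPM in JMC45. The increase was small, 0.17 (SE 0.06, 95% interval 0.02 to 0.32, limma adjusted p = 0.0385), or 1.13-fold by mean TPM. The call was lost whichever of the 4 libraries was left out (0.16 to 0.19), and with mitochondrially encoded TPM equalised ENO2 was called lower (-0.28, adjusted p = 0.0382). ENO1, the ubiquitous enolase of glycolysis, fell from 648 and 675 TPM to 484 and 486 TPM (log2 change -0.45, limma adjusted p = 0.000419), although its value was 0.90 after size-factor scaling. ENO3, the muscle form, was at 6.54 and 6.26 TPM in vehicle and 6.50 and 6.85 TPM in JMC45. ENO2 thus made up 9.41% and 9.07% of enolase TPM in vehicle and 13.6% and 13.4% in JMC45, a share that a common factor per library does not alter.

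CHGB and SYP did not pass the test. CHGB was at 11.9 and 12.1 TPM in vehicle and at 11.7 and 12.0 TPM in JMC45, and the 2 groups overlapped. Its difference was -0.01 (SE 0.09, 95% interval -0.24 to 0.22, limma adjusted p = 0.916). SYP was at 38.8 and 38.1 TPM in vehicle and at 35.0 and 32.8 TPM in JMC45, with both JMC45 libraries below both vehicle libraries. Its difference of -0.18 (SE 0.08, 95% interval -0.36 to 0.01) did not pass (limma adjusted p = 0.0661). A miss of the threshold does not show that a level was equal in both groups, and the intervals give the differences these libraries allow. Relative to the median gene the values of CHGB and SYP were 1.09 and 0.92, and after size-factor scaling both were called higher (1.23 and 1.14). With mitochondrially encoded TPM equalised both were called lower (-0.44 and -0.63). SYPL1, a broadly expressed relative of SYP, fell from 82.3 and 74.5 TPM to 27.9 and 29.8 TPM (log2 change -1.41), and size factors gave -0.09. SYPL2 fell by 1.04 on the log2 scale, to 1.01 and 0.96 TPM, and SYNPR was listed at 0 in all 4 libraries.

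CHGA, the granin most used as a clinical marker, had a mean of 0.71 TPM over the 4 libraries, under the 1 TPM needed for the test. It measured 0.83 and 1.18 TPM in vehicle and 0.34 and 0.48 TPM in JMC45, and both JMC45 values were below both vehicle values, as for 85.7% of the tested genes. Its mean TPM was 2.45-fold lower in JMC45. In a fit with no filter on low values its difference was -0.50 (limma adjusted p = 0.0595), on a scale that understates changes of low genes. That setting called 47% of 31100 genes, 2.45% higher and 44.6% lower. NCAM1 was at 0.01 and 0 TPM in vehicle and at 0 and 0.04 TPM in JMC45. Its paralog NCAM2 was well above it, at 23.1 and 19.5 TPM in vehicle and 21.8 and 21.6 TPM in JMC45 (difference 0.03, adjusted p = 0.794). INSM1 was listed at 0 in all 4 libraries, and INSM2 was at 0.38 and 0.34 TPM in vehicle and 0.02 and 0.01 TPM in JMC45. The granins thus differed in level, with CHGB at a mean of 12.0 TPM and CHGA at 1.01 TPM in vehicle.

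**Figure D2:**
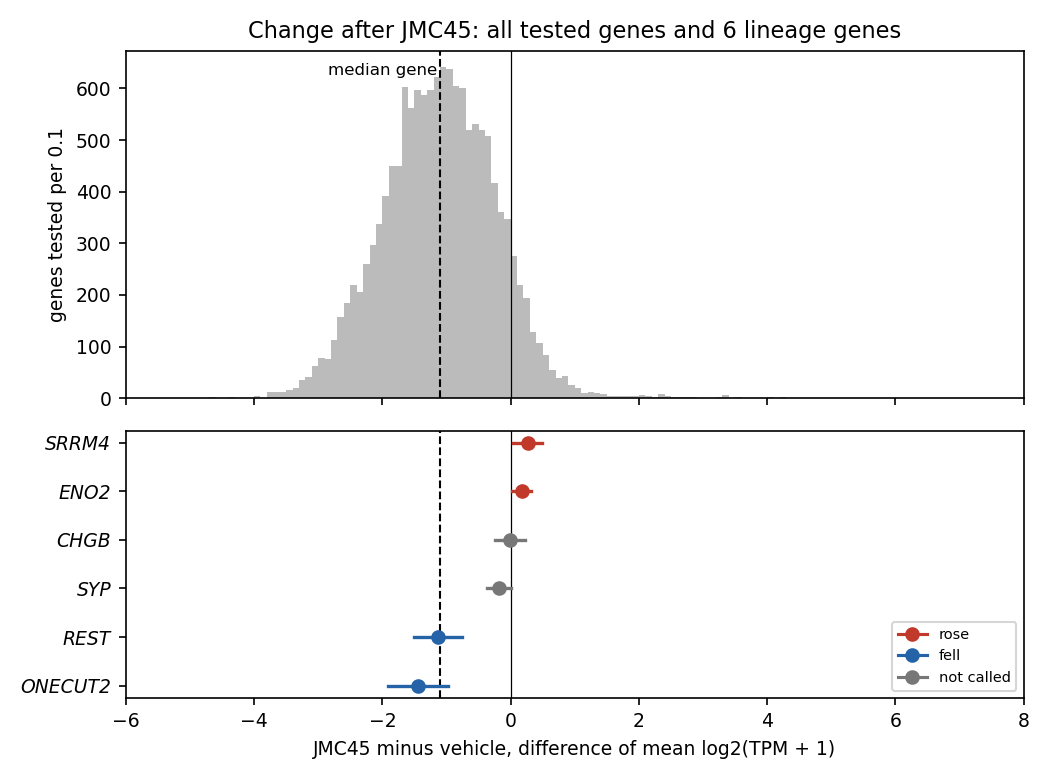
Upper panel: number of tested genes per 0.1 step of change (JMC45 minus vehicle, difference of mean log2(TPM + 1)). Lower panel: the 6 tested lineage genes with 95% intervals, red where they rose, blue where they fell and grey where they did not pass. REST (-1.13) sat at the dashed median of all genes (-1.10), whereas SRRM4, ENO2, CHGB and SYP lay to its right.

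The direction of the lineage genes depended on how libraries were put on a common scale. After size-factor scaling 4 of the 6 (SRRM4, ENO2, CHGB and SYP) were called higher, against 34.9% of all tested genes, and ONECUT2 was called lower, against 35.5%. In either direction this setting called 5 of the 6, against 70.4% of all genes. Quantile normalization called the same 4 higher and none lower, against 33.6% and 32.8% of all genes, or 66.5% in either direction. With mitochondrially encoded TPM equalised none was called higher, against 1.29% of all genes, and 5 were called lower, against 90.5%, with SRRM4 not called. ONECUT2 had the lowest value of the 6, and REST the next, under each of these scalings. SRRM4 had the highest value under each of them. Size factors and the equalised mitochondrial total use 1 factor per library, so they could alter this order only through the 1 added in log2(TPM + 1). Quantile normalization could reorder the genes, and there CHGB (1.29) lay above ENO2 (0.92).

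**Figure D3:**
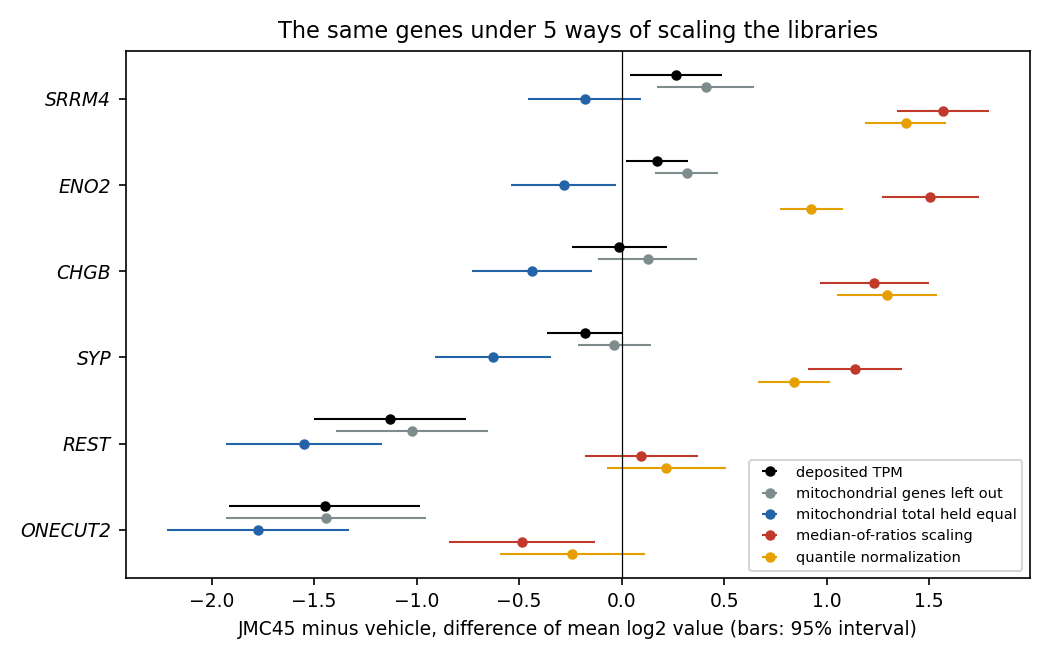
Change of each tested gene (difference of mean log2 values, JMC45 minus vehicle, with 95% intervals) on the deposited TPM and under 4 other scalings, 1 colour each. REST was at -1.13 on TPM and at 0.10 after size-factor scaling, and SRRM4 ranged from -0.18 to 1.57.

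Ratios between genes of one library do not depend on a factor common to all its genes, such as a size factor, although quantile normalization can alter them. They were compared on the deposited TPM for each tested gene over REST. SRRM4 was 1.46 and 1.70 times the TPM of REST in the vehicle libraries and 4.26 and 4.80 times in the JMC45 libraries, a 2.87-fold higher ratio. ENO2 was 3.79 and 5.02 times REST in vehicle and 11.3 and 12.1 times in JMC45, a 2.68-fold higher ratio. CHGB moved from 0.662 and 0.891 times REST to 1.71 and 1.91 times, and SYP from 2.17 and 2.81 times to 5.11 and 5.21 times. ONECUT2 went the other way, from 0.348 and 0.319 times REST to 0.2 and 0.187 times. All 5 of these ratios share REST as denominator, so they are not independent of each other. Against their paralogs, pairs chosen after the values were seen, ENO2 went from 0.105 and 0.101 times ENO1 to 0.160 and 0.157 times. SYP went from 0.472 and 0.512 times SYPL1 to 1.26 and 1.10 times, and SRRM4 from 2.14 and 2.17 times SRRM3 to 6.12 and 6.28 times. REST changed about as much as the median gene (-0.03 relative to it). The ratios over REST therefore largely restate how far each gene lay from the median gene. The groups did not overlap for any of the 8 ratios. For the TPM of single genes they did not overlap for 92% of all genes tested, and no such share was computed for ratios. The two-sided exact permutation test gave p = 0.33 for each ratio, the smallest value that 2 libraries against 2 allow. After Benjamini-Hochberg adjustment over the 8 it was 0.33.

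**Figure D4:**
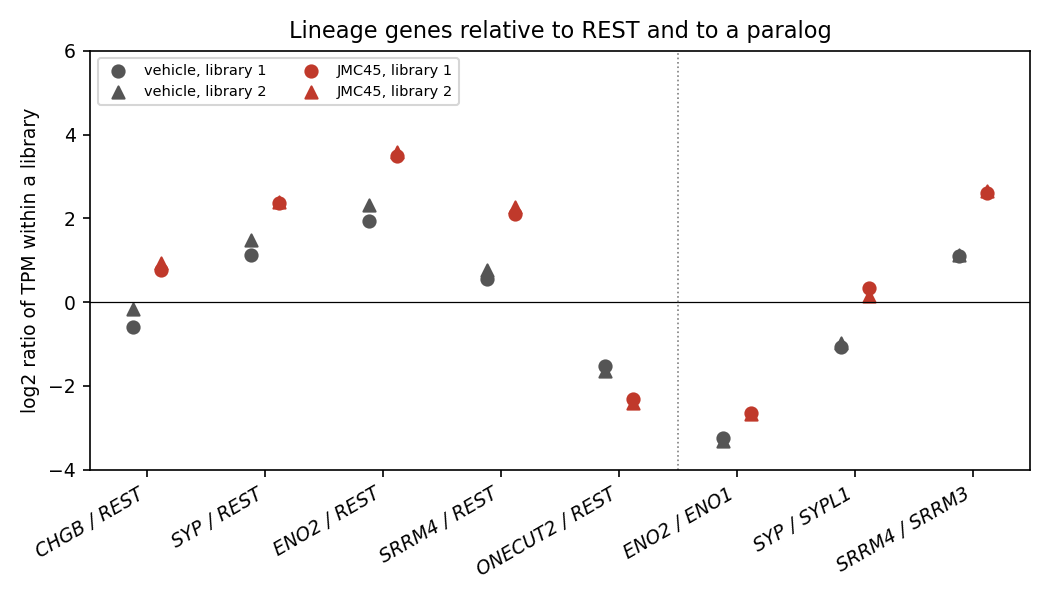
Log2 ratio of TPM within each library, for 5 lineage genes over REST (left of the dotted line) and 3 over a paralog (right), with grey for vehicle, red for JMC45, circles for library 1 and triangles for library 2. Each ratio except ONECUT2 over REST was higher in both JMC45 libraries than in both vehicle libraries.

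Most partners of REST fell on TPM, and HDAC1 rose. Of 20 genes for its corepressors and for enzymes that control its turnover, 19 were tested, 17 fell and 1 rose, against 80.7% and 4.25% of all genes. The median change was -1.35, and by size factors 6 were called lower and 6 higher, against 35.5% and 34.9% of all genes. SIN3A, the scaffold of a histone deacetylase complex, went from 34.5 and 30.3 TPM to 2.59 and 2.77 TPM (log2 change -3.18). USP7, a deubiquitinase, fell by 2.72 on the log2 scale, the phosphatase CTDSP1 fell by 2.39, and RCOR1 (CoREST), which links REST to KDM1A, fell by 2.10. The gene that rose was HDAC1, a histone deacetylase, from 221 and 225 TPM to 255 and 262 TPM (log2 change 0.21, limma adjusted p = 0.0115). The HDAC1 call was lost without JMC45 replicate 2 (0.19) and without the intensity trend (limma adjusted p = 0.0771). With mitochondrially encoded TPM equalised HDAC1 was called lower (-0.25, limma adjusted p = 0.0490). HDAC2 fell by 1.35, and HMG20B, the remaining tested gene, was at 126 and 127 TPM in vehicle and 127 and 115 TPM in JMC45.

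Splicing regulators of neural and of epithelial exons were mostly lower on TPM, as were most of all genes tested. Of 18 listed genes 13 were tested, 12 fell and none rose, with a median of -1.33, against 80.7% lower and 4.25% higher among all genes. By size factors 5 were called lower and 3 higher, against 35.5% and 34.9% of all genes. The epithelial regulators ESRP2 and ESRP1 fell by 2.43 and 1.72 on the log2 scale. PTBP1, which represses neural exons, went from 155 and 152 TPM to 47.9 and 44.7 TPM (log2 change -1.71), and QKI, an RNA-binding splicing regulator, fell by 1.62. CELF4 was the tested gene that did not pass, with a difference of 0.09. SRRM4 was thus called higher on TPM, a call lost in several settings, while the splicing regulators called there were lower, as most genes were. Exon use itself cannot be read from gene-level TPM.

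Genes of secretory granules and synaptic vesicles were mixed. Of 37 listed genes 24 were tested, 13 fell and 3 rose on TPM, against 80.7% and 4.25% of all genes, and their median of -0.41 was 0.69 above that of all genes. By size factors 2 were called lower and 16 higher, against 35.5% and 34.9%. SYT4, a synaptotagmin, went from 139 and 118 TPM to 23.6 and 23.0 TPM (log2 change -2.41). The vesicle GTPase RAB3A fell by 1.70, the vesicle protein SV2A by 1.46 and the active zone gene RIMS2 by 1.29. The 3 that rose were CPE, PCSK1N and PTPRN2, whereas VGF, a granin-family secretory protein, fell by 0.67 on the log2 scale but was at 0.66 by size factors. CPE, a carboxypeptidase that trims prohormones, went from 43.2 and 43.5 TPM to 59.6 and 62.0 TPM (log2 change 0.48, limma adjusted p = 0.000743). PCSK1N, which encodes an inhibitor of a prohormone convertase, went from 8.66 and 7.32 TPM to 16.2 and 10.3 TPM (0.64, adjusted p = 0.0301). PTPRN2, a granule membrane protein, went from 2.29 and 2.41 TPM to 3.69 and 3.46 TPM (0.45, adjusted p = 0.0198). The CPE call was kept when any 1 library was left out. The PTPRN2 call was lost without vehicle replicate 1 (adjusted p = 0.0640) and without either JMC45 library (0.109 and 0.0736). The PCSK1N call was lost without either vehicle library (adjusted p = 0.104 and 0.198) and without JMC45 replicate 1 (0.142), as well as with no filter on low values (0.105). Its value was 0.33 without JMC45 replicate 1 and 0.94 without JMC45 replicate 2. None of the 3 was called with mitochondrially encoded TPM equalised (0.03, 0.22 and 0.11 for CPE, PCSK1N and PTPRN2). SCG3, a granin-binding protein, was at 25.2 and 23.5 TPM in vehicle and 25.3 TPM in both JMC45 libraries, a difference of 0.06 that did not pass.

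Neural surface and cytoskeleton genes were lower or not called. Of 26 listed genes 15 were tested, 10 fell and none rose, with a median of -0.54, against 80.7% lower and 4.25% higher among all genes. By size factors 2 were called lower and 10 higher, against 35.5% and 34.9%. CELSR3, a cadherin of axon guidance, went from 21.3 and 21.6 TPM to 6.45 and 6.19 TPM (log2 change -1.62). The tubulins TUBB2B and TUBB3 fell by 1.20 and 0.75, and CRMP1, an axon guidance mediator, by 1.13. Among 16 luminal epithelial genes, all tested, 15 fell and none rose, with a median of -1.58, again against 80.7% and 4.25% of all genes. By size factors 8 were called lower and 7 higher, against 35.5% and 34.9%. KRT19 (-3.39), CLDN4 (-3.16), HOXB13 (-3.10) and SPDEF (-2.92) had the largest changes of that list on TPM, larger than those of REST and ONECUT2. They were among the 8 called lower by size factors. The 7 called higher there included KLK3 (1.55), KRT8 (1.03) and EPCAM (0.99), so the luminal genes did not move as 1 group.

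**Figure D5:**
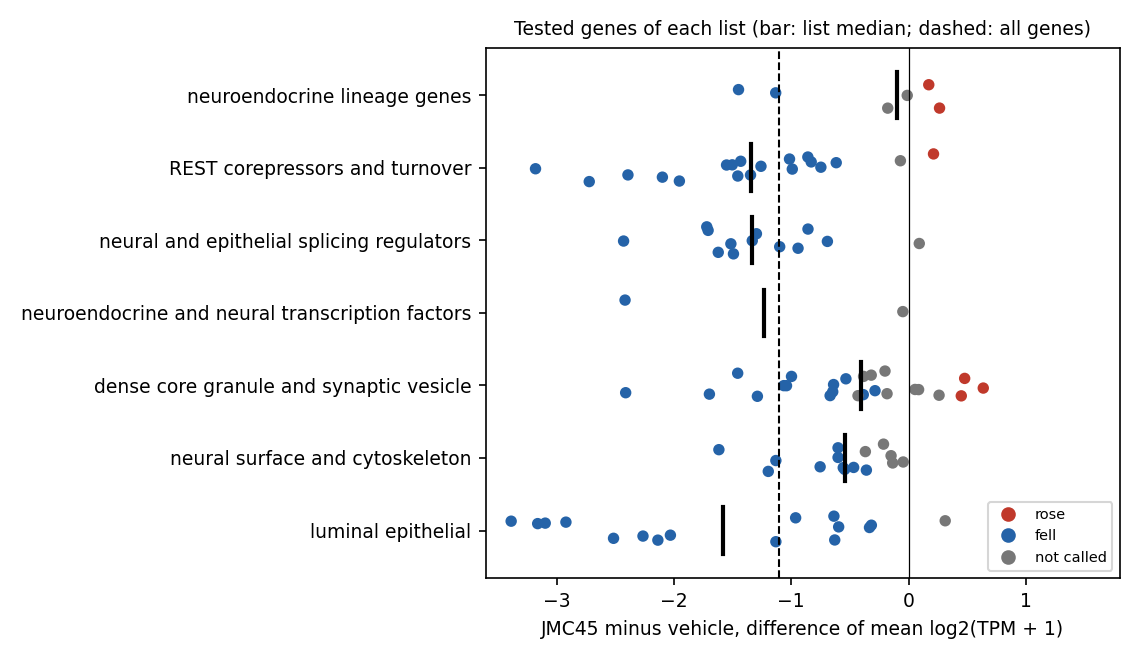
Change of each tested gene (JMC45 minus vehicle, difference of mean log2(TPM + 1)) by list, with red for genes that rose, blue for those that fell, grey for those not called, black bars for list medians and a dashed line for the median of all genes. The medians were -0.09 for the 6 neuroendocrine lineage genes, -0.41 for granule and vesicle genes and -1.58 for luminal genes.

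Markers of nerve and glia were low, and those of basal cells and fibroblasts were lower in JMC45 than in vehicle by summed TPM. Of 6 nerve and glia markers 1 was tested, MBP, which fell from 2.49 and 2.68 TPM to 0.44 and 0.40 TPM. The summed TPM of the 6 was 3.42 and 3.60 in vehicle and 0.62 and 0.65 in JMC45. Basal markers summed to 16.8 and 16.6 TPM in vehicle and 2.55 and 2.39 TPM in JMC45, with SNAI2 the largest part in vehicle. Fibroblast markers summed to 62.7 and 61.3 TPM in vehicle and 45.8 and 42.7 TPM in JMC45, mostly VIM. Of the 4 fibroblast markers tested, 2 fell and none rose on TPM, against 80.7% and 4.25% of all genes. By size factors 3 were called higher and none lower, against 34.9% and 35.5% of all genes. In that setting MBP (-0.65) and the basal gene SNAI2 (-1.73) were called lower, and the other tested basal gene, KRT15 (0.63), higher. The part of these markers in the changes of the lineage genes was not tested.

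The genes with the most similar profiles were sought by Euclidean distance between centred log2(TPM + 1) values over the 4 libraries. For REST they were SMAD9 (distance 0.03), MOV10 (0.03) and LINC02693 (0.04), and 588 genes lay within 0.2. For SRRM4 they were FKBP9 (0.03), MLF1 (0.04) and LPCAT1 (0.04), with 261 genes within 0.2. For ONECUT2 they were AKAP11 (0.03), SCRN3 (0.03) and CSNK1G3 (0.06), with 383 genes within 0.2. A profile of 4 libraries in 2 groups is shared by many genes, and the distances describe no more than that.

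The genes also differ in structure. By GENCODE release 29, SRRM4 spans 182 kb and NCAM1 317 kb, whereas ENO2 spans 9.95 kb, SYP 12.5 kb and CHGB 13.9 kb. REST spans 58.8 kb and ONECUT2 55.6 kb, and INSM1 is a single exon of 2829 bases. Of the 6 tested members, the 2 genes that rose were thus the longest and the shortest. SYP and SRRM4 overlap antisense genes by 68 and 25 exonic bases, and these antisense genes (SYP-AS1 and AC084361.1) were at most 0.14 and 0.28 TPM.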

How the data were processed

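Poly(A) RNA of 22Rv1 cells was sequenced from a stranded library kit, per the labels' protocols, in 2 vehicle and 2 JMC45 libraries. The authors deposited TPM values per Ensembl gene and library, per the file headers. Of tools, fastp, HISAT2 and StringTie appear in the submitters' processing notes, with no version. The sources used here give no genome build, annotation or use of strand. The columns named CTL were taken as vehicle. The table held 63241 genes and 50 lines without values, which were left out, and 62666 genes had a symbol. Depth is unknown, so no counting intervals are given.

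Genes whose mean over the 4 libraries reached 1 TPM (14018 genes) were tested on the log2(TPM + 1) scale with limma 3.58.1 in R 4.3.3 (intensity trend, two-sided, no replicate block). P-values were Benjamini-Hochberg adjusted over these 14018 genes at a threshold of 0.05; "rose" and "fell" mean past it. The log2(TPM + 1) scale understates changes of low genes. The fit was run on simulated data in which a small part of the genes rose, so it was not tried on a fall of most genes. Summaries used Python 3.11.15, pandas 2.3.3, numpy 2.4.6, scipy 1.17.1 and matplotlib 3.10.9.

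The members, the 12 other gene lists and the 13 alternatives were chosen with earlier results of these data known. Named are all members and their paralogs, up to 4 genes with the largest change past the threshold in each other list, any gene past it against the rest of its list, and the 3 nearest profiles of REST, SRRM4 and ONECUT2. Other genes, such as HDAC2, SCG3, VGF and the marker genes, were named after their values were seen. Some items are not reported here. Alternative settings used another pseudocount (0.1), no filter or a mean of at least 5 TPM, 4 scalings, no intensity trend, a replicate block, and leaving out each library.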

Additional observations from a re-analysis of the deposited data

How the results depend on the processing

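Scaling changed the sign of 5 of the 6 tested members. By median-of-ratios size factors REST was 0.10, CHGB 1.23 and SYP 1.14, and under quantile normalization they were 0.22, 1.29 and 0.84, with ONECUT2 at -0.24 and no longer called. Leaving out mitochondrially encoded genes, CHGB was 0.13. With mitochondrially encoded TPM equalised ENO2 was -0.28 and SRRM4 -0.18, while CHGB (-0.44) and SYP (-0.63) were called lower. The call of ENO2 (0.17) was lost without the intensity trend (adjusted p = 0.128) and with the replicate block (adjusted p = 0.0774), which changed no other call of the 6 genes. The numbers were not taken as pairs, since the deviations of same-numbered libraries had a correlation of -0.05 across genes. The call of SRRM4 (0.26) was lost without the intensity trend (adjusted p = 0.0668) and with no filter on low values (adjusted p = 0.0658). ONECUT2 could not be fitted at a mean TPM of at least 5, where it is filtered out. The cause was not tested.

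Leaving out 1 library, where the lone sample of its group is assumed to vary like the other group, gave ranges of -1.32 to -0.94 for REST, -1.67 to -1.23 for ONECUT2, 0.18 to 0.35 for SRRM4, 0.16 to 0.19 for ENO2, -0.027 to 0.0051 for CHGB and -0.22 to -0.13 for SYP. CHGB was at 0.0016 without vehicle replicate 2 and at 0.0051 without JMC45 replicate 1. ENO2 was called in none of the 4, and SRRM4 only without vehicle replicate 1. Log2 ratios over REST moved between 1.41 and 1.63 for SRRM4, 1.22 and 1.62 for ENO2, 1.02 and 1.45 for CHGB, 0.88 and 1.25 for SYP, and -0.85 and -0.72 for ONECUT2.

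Over all genes, 596 were called higher and 11311 lower on TPM, 4888 and 4981 by size factors, 4716 and 4603 by quantile normalization, and 181 higher with mitochondrially encoded TPM equalised; leaving out 1 library gave 425 to 530 higher and 10513 to 11083 lower. In the 5 neural and neuroendocrine lists together 73 of 120 genes were tested. Of these, 4 were higher and 53 lower on TPM, against 4.25% and 80.7% of all genes. By size factors 36 were higher and 16 lower, against 34.9% and 35.5% of all genes. Quantile normalization also gave 36 and 16, against 33.6% and 32.8%. With mitochondrially encoded TPM equalised 0 were higher and 67 lower, against 1.29% and 90.5%. Without 1 library 2 to 3 were higher and 46 to 53 lower.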

Other observations

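Transcription factors of neuroendocrine and neural fate were mostly near or below the range that could be tested. Of 19 genes on this list, which also holds the histone methyltransferase EZH2, 17 were below a mean TPM of 1. FOXA2, POU3F4 and NKX2-2 were listed at 0 in all libraries. NEUROD1, a proneural factor, was at most 0.06 TPM. POU3F2 (BRN2), a neural POU factor, was at 1.69 and 1.57 TPM in vehicle and 0.22 and 0.07 TPM in JMC45, and MYCL was at 1.89 and 1.62 TPM and 0.15 and 0.06 TPM. ISL1, a LIM homeodomain factor, was at 0.79 and 1.00 TPM in vehicle and 0.06 and 0.03 TPM in JMC45. SOX2 was at 0.06 and 0.12 TPM in vehicle and 0.25 and 0.15 TPM in JMC45. Of the 2 tested genes of this list, EZH2, a histone methyltransferase, fell from 62.0 and 59.9 TPM to 11.0 and 10.3 TPM, and HES6 was at 2.89 and 2.80 TPM in vehicle and 2.87 and 2.57 TPM in JMC45. In the fit with no filter on low values, 7 of the 16 genes that could be fitted were called lower and none higher, against 44.6% and 2.45% of the 31100 genes there. EZH2 was among the 7.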
